A study of Rattus norvegicus with 12 samples.

Results

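Most of the genes described here encode enzymes that add or remove glutamate, or add tyrosine, on tubulin. With an enzyme subunit, Tpgs1, and a divergent relative, Ttll12, the 10 genes are Ttll1, Ttll4, Ttll5, Ttll7, Ttll11, Ttll12, Ttl, Agtpbp1, Agbl5 and Tpgs1. They were found by the gene name that the array files give to each probe, which yielded 13 of the 45598 probes and 9 of the 10 genes. Ttll11 had no probe under its gene name. A search of the probe descriptions for the same family members added 5 probes, for Ttll4, Ttll7 and Ttll11, and brought the total to 18 probes for all 10 genes. Ttll7 was picked because it was among the larger rises of these data, so its own difference is given as a description, and no p-value is given for it.

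Transcripts were measured on single-colour Agilent microarrays in N27 cells, an immortalised rat line derived from dopaminergic neural tissue. The fipronil group was 6 samples exposed to 25 µM fipronil, a phenylpyrazole insecticide that acts on GABA-gated chloride channels, and the control group was 6 samples without treatment. The exposure lasted 24 h. Whether the replicates were separate cultures, and whether control cells were given a vehicle, is not in the labels. The p-values therefore measure only the spread from sample to sample, part or all of which may be technical. In RNA from a whole culture, fewer cells of a type and less RNA per cell cannot be told apart.

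The carboxy-terminal tails of tubulin carry chains of glutamate that change how motors, severing enzymes and other partners bind the microtubule, and neurons carry more of this mark than most cells. Tubulin tyrosine ligase-like enzymes (TTLLs) add the glutamates, some starting a chain and others lengthening it, and cytosolic carboxypeptidases remove them. In a separate cycle the last tyrosine of alpha-tubulin is clipped off by vasohibins and put back by tubulin tyrosine ligase.

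Ttll7 lies on chromosome 2 of the GRCr8 annotation. Its 4 probes are shown because the results for this gene turn on which of them is read. All lie on the plus strand of the rn4 build, by the coordinates in the array files, are 60 bases long and have a GC content of 45%. They are given in genomic order, from upstream to downstream.
A_64_P171383, chr2:245115247-245115306: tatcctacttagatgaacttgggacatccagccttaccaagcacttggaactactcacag
A_64_P286274, chr2:245139492-245139551: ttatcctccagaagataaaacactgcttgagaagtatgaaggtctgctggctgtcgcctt
A_42_P466548, chr2:245169383-245169442: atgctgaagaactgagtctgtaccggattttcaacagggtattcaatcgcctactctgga
A_42_P839932, chr2:245198065-245198124: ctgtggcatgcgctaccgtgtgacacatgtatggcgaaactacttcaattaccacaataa
The second probe starts 24.2 kb, the third 54.1 kb and the fourth 82.8 kb downstream of the first. The first and the fourth carry the gene name Ttll7, and the others are named as Ttll7 only in their descriptions. The files describe the first 3 as probes of 1 predicted transcript variant and the fourth as a probe of another. The fourth is printed in 10 spots on each array, and each of the others in 1 spot. Exon positions on rn4 were not used here.

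Ttll11 and Ttll12 each have a pair of probes of which only 1 gave a signal, and these are shown because the choice of probe decides whether the gene is seen at all. Both pairs lie on the minus strand of rn4.
Ttll11 A_64_P017495, chr3:14865288-14865347: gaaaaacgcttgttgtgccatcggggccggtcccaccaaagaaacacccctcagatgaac
Ttll11 A_43_P23320, chr3:14912336-14912395: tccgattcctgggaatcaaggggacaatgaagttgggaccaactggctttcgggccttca
Ttll12 A_64_P015255, chr7:121601492-121601551: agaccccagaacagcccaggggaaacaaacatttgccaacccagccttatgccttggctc
Ttll12 A_44_P1107753, chr7:121604983-121605042: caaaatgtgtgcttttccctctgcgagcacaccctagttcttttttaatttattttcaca
The 2 Ttll11 probes are 47.0 kb apart and similar in GC content, at 55% and 53.3%. The 2 Ttll12 probes are 3.49 kb apart and have a GC content of 55% and 36.7%. In each pair the first probe stood well above background on all 12 arrays and the second on 0 of 12.

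The arrays lay on 3 slides, and slide and treatment nearly coincided. Slide 1 held fipronil replicates 7 and 8 with control replicates 2 and 3, slide 3 held fipronil replicates 1 to 4 alone, and slide 2 held control replicates 5 to 8 alone. The processed signal at the 75th percentile was 111 to 246 in fipronil arrays and 269 to 472 in control arrays. The share of spots well above background was 40.8% to 45.8% in fipronil arrays and 46.4% to 50.02% in control arrays. Signals are therefore given as log2 values relative to each array's 75th percentile, unless stated otherwise. Of the defining dopaminergic markers, tyrosine hydroxylase (Th) was well above background on all 12 arrays, and the dopamine transporter Slc6a3, Ddc, Pitx3, Foxa2 and En1 on 0 of 12. The general neuronal markers Rbfox3, Map2, Snap25 and Nefl were likewise on 0 of 12, and Tubb3 on 9. Th did not pass the test, with a log2 difference of -0.48 (limma adjusted p = 0.152). Ciliated cells are rich in glutamylated tubulin. Of 5 markers of that cell type, 2 could be tested and 1 of them, the transcription factor Foxj1, fell 1.83-fold with fipronil, to -3.38 ± 0.36, against -2.50 ± 0.30 in controls (SD, n = 6 each, limma adjusted p = 0.022). Foxj1 was well above background on 4 of 6 fipronil arrays and 6 of 6 control arrays. Its call was lost when slide entered as a fixed block (adjusted p = 0.266) or a random block (0.129), on slide 1 alone (0.326, difference -0.72) and without fipronil replicate 3 (0.058). The difference had the opposite sign with a normexp background and the same scaling, at 0.19. The other tested marker, Rsph1, differed by -0.17, and Ccdc39, Dnai1 and Tekt1 were well above background on 0 of 12 arrays. The part of this marker list in the differences below was not tested.

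Across the 18 member probes, 5 were well above background on all 12 arrays, 6 on some arrays and 7 on none. A gene was tested when it had a probe that 6 or more of the 12 arrays called well above background, and 9 of the 10 members met this, all but Ttl. Of these 9, 1 was past an adjusted p of 0.05 in limma, beside 5.01% of the 13562 genes and transcripts tested on the arrays. The 1 was Ttll7, which was chosen from this same contrast, so nothing is read from that count. The other 8 had adjusted p-values between 0.122 and 0.979, and 1 of them, Tpgs1, had an unadjusted p under 0.05, as did 3398 of the 13562 genes, a larger share. Their median log2 difference was 0.04, beside -0.08 over all genes tested, with 5 of the 8 higher and 3 lower in fipronil. The 5 include Ttll4, with 1 of 6 fipronil arrays well above background, and Agbl5, with 3 of 6. The fipronil and control values overlapped in these 8 members, and did not in Ttll7, where fipronil was higher. Of all genes tested 4.18% had no overlap, and 1.63% had none with fipronil higher. These counts depended on how background was removed. With a normexp model of background before the same scaling, all members but Agtpbp1 passed, 8 of 9, beside 50.1% of all genes tested, and Ttll1, lower in fipronil with the scanner's own background correction, was then 0.46 higher on the log2 scale.

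Ttll7 encodes a polyglutamylase that acts mainly on beta-tubulin and is abundant in the nervous system. Its upstream probe, A_64_P171383, was well above background on 6 of 6 fipronil arrays and on 4 of 6 control arrays, the exceptions being control replicates 2 and 5. On slide 1 its log2 signal was -2.99 and -3.40 in fipronil replicates 7 and 8, against -3.90 and -4.00 in control replicates 2 and 3. On slide 3 it was -2.55, -2.79, -1.95 and -2.80 in fipronil replicates 1 to 4, and on slide 2 it was -4.51, -4.73, -4.43 and -3.85 in control replicates 5 to 8. Every fipronil array was higher than every control array. On slide 3, however, the lowest scaled signal called well above background was -3.74 to -3.42, depending on the array. This lay above the highest control value of -3.85, so any signal called on slide 3 would exceed every control array. The fipronil mean was -2.75 ± 0.48 and the control mean -4.24 ± 0.36 (SD, n = 6 each), a log2 difference of 1.49 ± 0.23 (SE), or 2.81-fold. On slide 1 the difference was 0.76 ± 0.22 (SE), and between slides 3 and 2 it was 1.86.

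**Figure D1:**
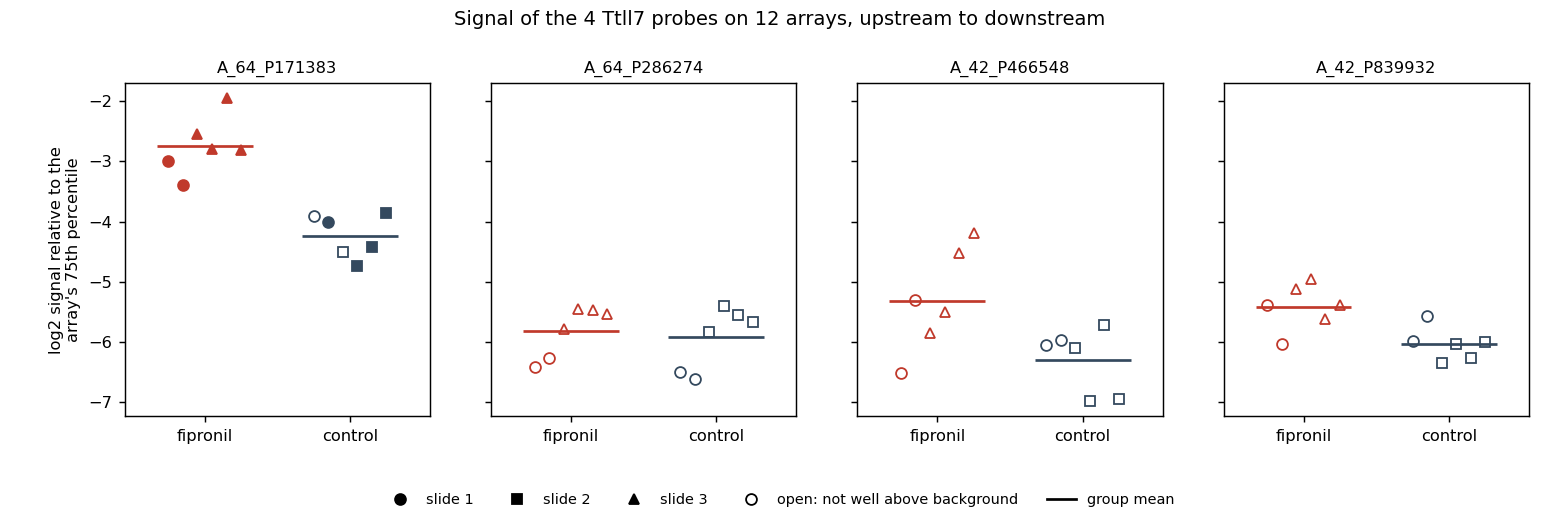
Log2 signal relative to each array's 75th percentile (y axis) for the 4 Ttll7 probes, in 6 fipronil and 6 control arrays; lines are group means, marker shapes are slides, and open markers were not well above background. Only the upstream probe has filled markers, on 10 of 12 arrays, and there all fipronil arrays, from -3.40 up, lie above all control arrays, from -3.85 down.

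The other 3 Ttll7 probes were well above background on 0 of 12 arrays, so no fold is given for them. The downstream probe A_42_P839932, with 10 spots on each array, had 0 of 60 spots well above background in the fipronil arrays and 0 of 60 in the control arrays. Its log2 signal ran between -6.04 and -4.95 in fipronil arrays and between -6.34 and -5.56 in control arrays, so the groups overlapped. A_42_P466548 ran between -6.52 and -4.19 in fipronil arrays and between -6.98 and -5.72 in control arrays. A_64_P286274 ran between -6.42 and -5.45 in fipronil arrays and between -6.61 and -5.40 in control arrays. The difference between the groups was thus measured by 1 probe, with 1 spot per array, the most upstream of the Ttll7 probes.

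The signal of the upstream probe before scaling shows how close it lay to background. The processed signal, in scanner units, was 31.0 and 23.3 in fipronil replicates 7 and 8 and 18.7 and 16.8 in control replicates 2 and 3, all on slide 1. It was 23.5, 16.1, 36.3 and 16.3 in fipronil replicates 1 to 4 on slide 3, and 16.7, 17.7, 21.9 and 29.5 in control replicates 5 to 8 on slide 2. Within slide 1, where the arrays were of similar brightness, both fipronil arrays were above both control arrays. Over all 12 arrays the groups overlapped, with means of 24.4 ± 8.02 in fipronil arrays and 20.2 ± 4.96 in control arrays (SD, n = 6 each). The lowest signal called well above background was 10.3 to 10.98 on slide 3, 11.9 to 14.0 on slide 1 and 13.3 to 14.0 on slide 2. The 75th percentile by which each array was scaled averaged 126 ± 15.2 on slide 3, 260 ± 16.9 on slide 1 and 436 ± 43.5 on slide 2 (SD, n = 4 each).

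**Figure D2:**
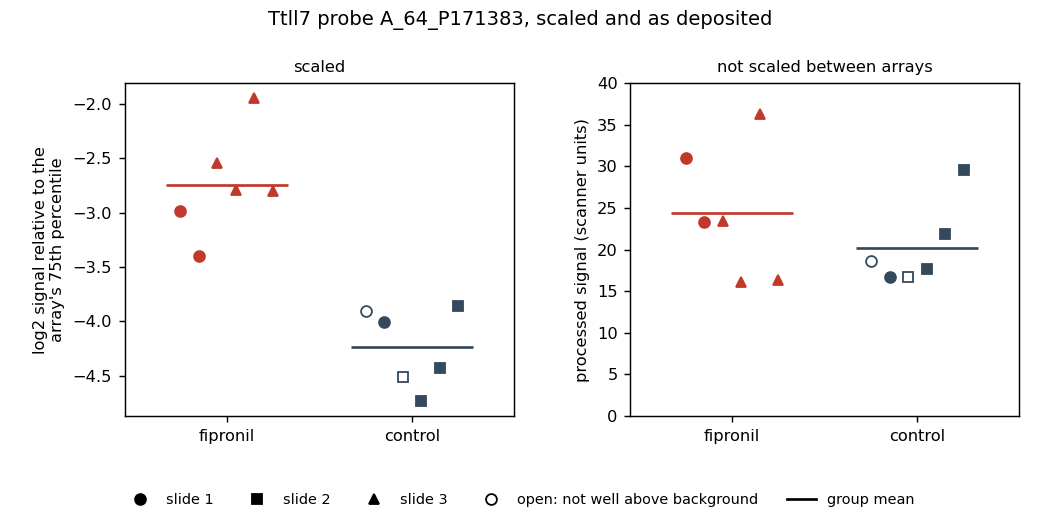
The Ttll7 probe A_64_P171383 in 6 fipronil and 6 control arrays, as log2 signal relative to each array's 75th percentile (left) and as processed signal in scanner units, not scaled between arrays (right); lines are group means, marker shapes are slides and open markers were not well above background. The groups are apart on the left, and on the right they overlap, with means of 24.4 in fipronil arrays and 20.2 in control arrays.

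Probes that were not detected on any array also had higher scaled values in fipronil. Of the 24204 probes on the array that were well above background on none of the 12 arrays, 98.5% had a higher scaled value in fipronil, with a median log2 difference of 0.94. Their median difference was 0.13 on slide 1 and 1.36 between slides 3 and 2. The 7 member probes that were never well above background behaved likewise, with 7 of 7 higher in fipronil and a median of 0.71, which was 0.12 on slide 1 and 0.89 between slides 3 and 2. Beside these medians, the detected Ttll7 probe differed by 0.76 on slide 1 and by 1.86 between slides 3 and 2. The part of background in the 12-array value of 1.49 was not tested.

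Ttll1, the catalytic subunit of a brain polyglutamylase complex, was low on these arrays. Its signal ran from -3.94 to -3.06 with a median of -3.37 in fipronil arrays, and from -3.72 to -2.66 with a median of -3.11 in control arrays. It was well above background on 4 of 6 fipronil arrays, replicates 1 and 2 being the exceptions, and on 6 of 6 control arrays. The groups overlapped, and the log2 difference was -0.29 ± 0.20 (SE, limma adjusted p = 0.383). The difference was 0.22 on slide 1 and -0.55 between slides 3 and 2.

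Ttll4 adds the first glutamate to tubulin and to other acidic proteins, among them nucleosome assembly proteins. Its best probe, A_64_P009918, is named as Ttll4 only in its description and was well above background on 1 of 6 fipronil arrays and 5 of 6 control arrays. Its signal ran from -4.66 to -2.88 with a median of -3.91 in fipronil arrays, and from -4.88 to -3.60 with a median of -3.93 in control arrays. The fitted log2 difference was 0.25 ± 0.32 (SE, limma adjusted p = 0.662), but 5 of the 6 fipronil values behind it were not well above background, so it gives no direction for Ttll4. A second probe, A_44_P1095439, was well above background on 0 of 6 fipronil arrays and on 4 of 6 control arrays, those of slide 2. No fold is given for it, because the lowest signal that could have been called on the fipronil arrays lay above the control mean. The remaining probe was well above background on 0 of 12 arrays.

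Ttll5, a polyglutamylase of alpha-tubulin, was read by 1 of its 2 probes, which was well above background on all 12 arrays. Its signal ran from -2.98 to -1.77 with a median of -2.23 in fipronil arrays, and from -2.53 to -2.04 with a median of -2.36 in control arrays. The control values lay within the fipronil range. The log2 difference was 0.06 ± 0.18 (SE, limma adjusted p = 0.862).

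Ttll11 encodes an enzyme that lengthens existing glutamate chains. The probe A_64_P017495 was well above background on all 12 arrays, between -1.43 and -0.91 with a median of -1.17 in fipronil arrays, and between -1.89 and -1.02 with a median of -1.51 in control arrays. Control replicates 5 and 8, at -1.02 and -1.33, lay inside the fipronil range. The log2 difference was 0.30 ± 0.15 (SE, limma adjusted p = 0.222). Its size was similar on slide 1, at 0.38, and between slides 3 and 2, at 0.27. On slide 1 the values were -1.18 and -1.17 in fipronil replicates 7 and 8, against -1.59 and -1.51 in control replicates 2 and 3.

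Tpgs1 encodes a non-catalytic subunit of the complex that Ttll1 belongs to. It was well above background on all 12 arrays, from 0.69 to 1.76 with a median of 1.09 in fipronil arrays, and from 1.26 to 1.92 with a median of 1.73 in control arrays. Its log2 difference was -0.51 ± 0.19 (SE), which did not pass the limma test (adjusted p = 0.122). Slide 1 and the other slides went opposite ways. On slide 1 the fipronil values of 1.42 and 1.76 lay above the control values of 1.36 and 1.26, a difference of 0.28 ± 0.21 (SE). Between slides 3 and 2 the fipronil values of 1.13, 0.69, 1.06 and 0.79 lay below the control values of 1.92, 1.90, 1.80 and 1.66, a difference of -0.90 ± 0.14 (SE). Without fipronil replicate 8, Tpgs1 passed the threshold over the remaining arrays (limma adjusted p = 0.029), as did 14.9% of all genes tested.

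Ttll12 is a divergent relative in which a ligase activity has not been established. The probe A_64_P015255 was well above background on all 12 arrays. Its fipronil values were spread from -1.61 to -0.69 with a median of -0.95, while its control values lay between -1.35 and -1.26 with a median of -1.33. The SD was 0.33 in fipronil arrays and 0.04 in control arrays (n = 6 each). The log2 difference was 0.28 ± 0.14 (SE, limma adjusted p = 0.232). All 4 fipronil arrays of slide 3, at -0.92, -0.82, -0.98 and -0.69, were above every control array, and fipronil replicate 7 on slide 1, at -1.61, was below every control array. The slide 1 difference was -0.10, and that between slides 3 and 2 was 0.47. Leaving out fipronil replicate 7 brought Ttll12 past the threshold, with a limma adjusted p of 0.048, beside 6.59% of all genes tested.

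Ttl encodes the ligase that puts tyrosine back on alpha-tubulin. Its probe was well above background on 1 of 6 fipronil arrays, replicate 8, and on 4 of 6 control arrays, those of slide 2, so it was not tested. Its signal ran from -5.74 to -3.39 in fipronil arrays and from -4.40 to -3.44 in control arrays. The groups overlapped.

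**Figure D3:**
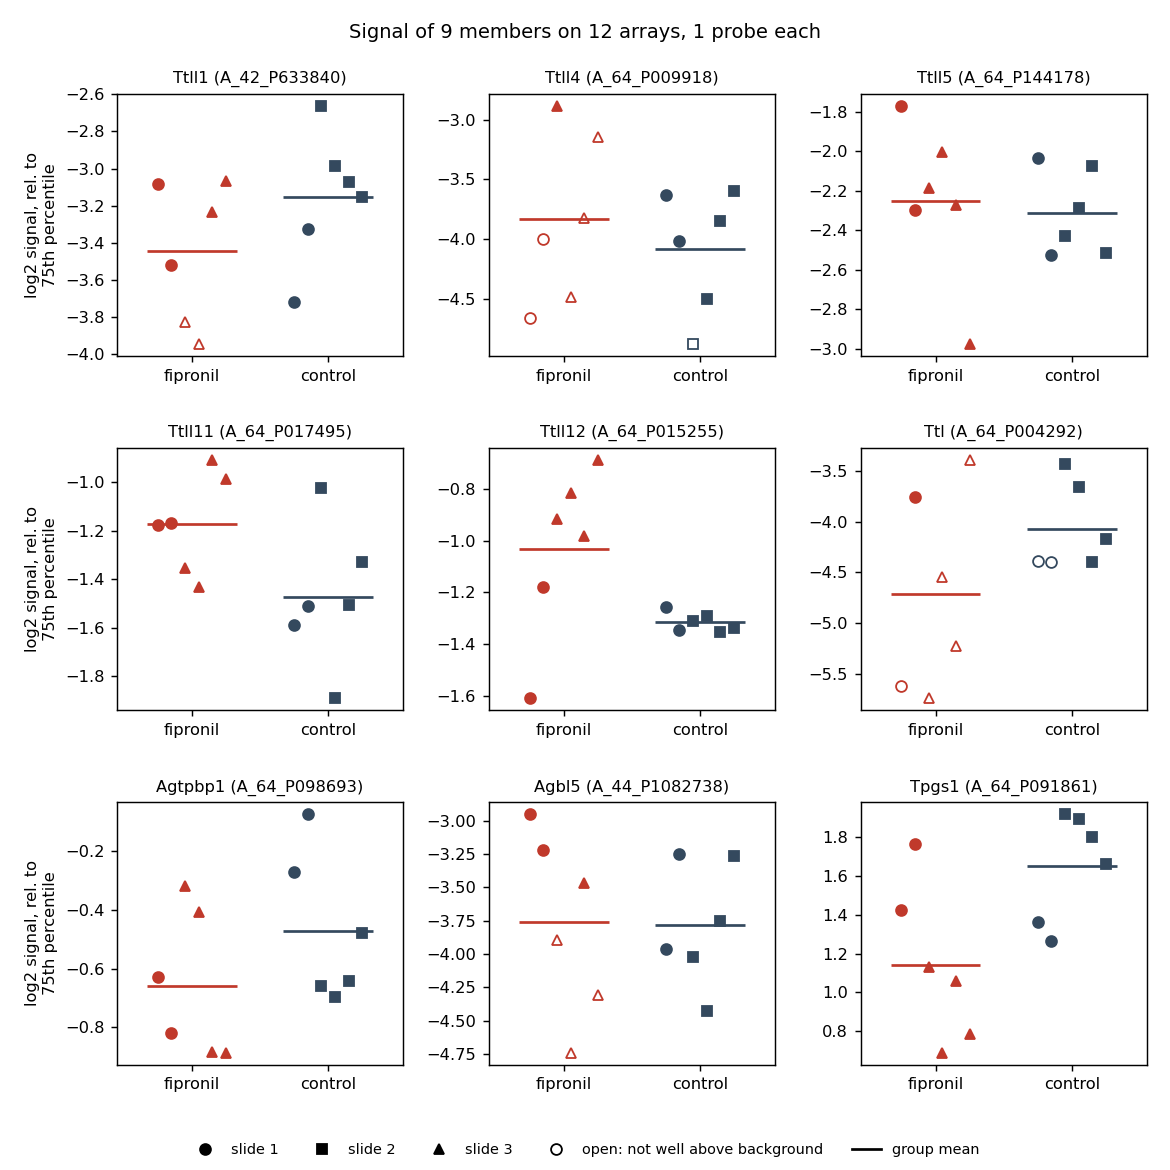
Log2 signal relative to each array's 75th percentile (y axis, its own range for each gene) for 9 genes, 1 probe each, in 6 fipronil and 6 control arrays; lines are group means, marker shapes are slides and open markers were not well above background. The groups overlap in every panel; Tpgs1 is lowest in the 4 fipronil arrays of slide 3 (0.69 to 1.13), and Ttll12 is nearly level in control arrays (-1.35 to -1.26).

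Agtpbp1 encodes the carboxypeptidase CCP1, which shortens glutamate chains and whose loss in mice leads to degeneration of Purkinje cells. It was well above background on all 12 arrays, from -0.89 to -0.32 with a median of -0.72 in fipronil arrays, and from -0.70 to -0.07 with a median of -0.56 in control arrays. The log2 difference was -0.19 ± 0.15 (SE, limma adjusted p = 0.451). On slide 1 the fipronil values of -0.63 and -0.82 lay below the control values of -0.27 and -0.07, a difference of -0.55 ± 0.20 (SE, limma adjusted p = 0.300 for slide 1 alone). Between slides 3 and 2 the difference was -0.0050.

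Agbl5 encodes CCP5, which removes the glutamate at the branch point of a chain. It was well above background on 3 of 6 fipronil arrays, replicates 3, 7 and 8, and on 6 of 6 control arrays. Its signal ran from -4.74 to -2.95 with a median of -3.68 in fipronil arrays, and from -4.43 to -3.25 with a median of -3.86 in control arrays. The log2 difference was 0.02 ± 0.30 (SE, limma adjusted p = 0.979). It was 0.52 on slide 1 and -0.24 between slides 3 and 2.

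Only slide 1 carries both treatments, and the members were compared there apart. Of the 9 tested members, 5 had no overlap between the 2 fipronil and the 2 control arrays: Ttll7, Ttll11, Agbl5 and Tpgs1, which were higher in fipronil, and Agtpbp1, which was lower. No overlap was found in 53.7% of all genes tested on slide 1, so the members' share is near that of all genes. An exact permutation test of 2 against 2 arrays cannot reach 0.05. In limma on slide 1 alone, 0 of the 9 members and 0% of all genes passed the adjusted threshold, and besides Ttll7, 1 of the other 8 members, Agtpbp1, had an unadjusted p under 0.05, as did 2142 of 13562 genes, a similar share. With slide as a fixed block in a fit of all 12 arrays, 0 of the 9 members passed, beside 0.0885% of all genes. The difference in that fit is the slide 1 difference itself, so it is not a separate check. There too Agtpbp1 was the 1 of the other 8 under an unadjusted 0.05, as were 2583 of 13562 genes. The slide 1 difference and that between slides 3 and 2 had opposite signs in 6 of the 9 members and the same sign in 3, Ttll7, Ttll11 and Agtpbp1. Between slides 3 and 2, treatment and slide cannot be told apart.

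**Figure D4:**
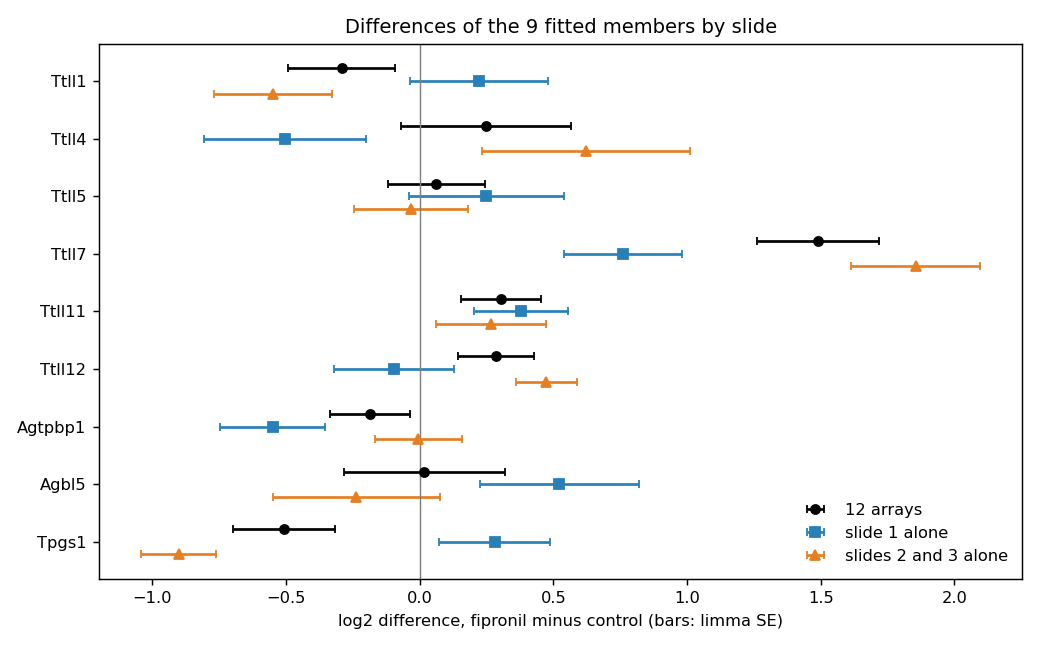
Log2 difference of fipronil minus control (x axis, with limma SE as bars) for the 9 tested members over 12 arrays, on slide 1 alone and between slides 3 and 2. Ttll7 is above 0 in all 3, at 1.49, 0.76 and 1.86, and Tpgs1 changes side, at -0.51, 0.28 and -0.90.

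The genes whose signal over the 12 arrays was most like that of Ttll7, by Pearson's r among 9790 other tested genes with a symbol, were Atp2b4 (a calcium pump of the plasma membrane, r = 0.97), Chn1 (a regulator of Rac, r = 0.97), Nsd2 (a histone methyltransferase, r = 0.96), Crim1 (a membrane protein that binds growth factors, r = 0.96) and Nusap1 (a microtubule-binding protein of the mitotic spindle, r = 0.95). All 5 were well above background on all 12 arrays. These arrays share treatment and slide, which enter each r. Under the other scalings r for Atp2b4 stayed between 0.96 and 0.97, while that for Nusap1 ran from 0.77 to 0.95. Among the other members, r with Ttll7 ran from -0.78 for Tpgs1 to 0.59 for Ttll11 and Ttll12.

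The rest of the tubulin modification pathway was read from lists of 68 genes, of which 43 were tested. Of these 43, 1 rose and 0 fell at an adjusted p of 0.05, beside 2.23% higher and 2.78% lower of all genes tested, and the median log2 difference was 0.06. The 1 was Map7, which encodes a microtubule-associated protein that recruits kinesin. Its signal was -2.98 ± 0.46 in fipronil arrays and -3.78 ± 0.32 in control arrays (SD, n = 6 each), 1.74-fold higher in fipronil (limma adjusted p = 0.048). On slide 1 its log2 difference was 0.50. Slide as a fixed block gave it an adjusted p of 0.465 and median scaling one of 0.053. It passed in 2 of 12 fits that left out 1 array, those without fipronil replicate 7 or 8. In these 2 fits 6.59% and 14.9% of all genes passed.

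Other glutamylases and the glycylases, which add glycine in place of glutamate, were hardly seen. Of Ttll2, Ttll6, Ttll9 and Ttll13, Ttll9 was well above background on 2 arrays and the others on 0, and of the glycylases Ttll3 was on 1 array and Ttll10 on 0. The 4 other subunits of the Ttll1 complex were all tested, with 0 past the threshold and a median log2 difference of -0.32, which rests partly on undetected fipronil values. Nicn1 and Tpgs2 were each well above background on 2 of 6 fipronil arrays and 6 of 6 control arrays, so no size is given for them. Lrrc49, detected on all 12 arrays, had a difference of 0.32 (limma adjusted p = 0.160). Without fipronil replicate 8, Lrrc49 passed (adjusted p = 0.037), as did 14.9% of all genes tested. Cstpp1 had a difference of -0.13 (adjusted p = 0.602).

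Of the other carboxypeptidases, Agbl4, which encodes CCP6, was the 1 tested. Its difference was 0.76 ± 0.47 (SE, limma adjusted p = 0.335) over 12 arrays, -1.15 on slide 1 and 1.72 between slides 3 and 2. The 4 detyrosination genes had 0 past the threshold, with Svbp, the partner of the vasohibins, at -0.07 and the vasohibin Vash1 at 0.11 (limma adjusted p = 0.781 and 0.683). The largest difference of these 4 was that of the other vasohibin, Vash2, at 0.46 (limma adjusted p = 0.065). For Vash2 it was 0.51 on slide 1 and 0.44 between slides 3 and 2. The acetyltransferase Atat1 had a difference of -0.24 and the deacetylase Sirt2 of 0.06 (adjusted p = 0.469 and 0.872).

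The list of tubulins holds the substrates of these enzymes and also gamma-, delta- and epsilon-tubulins. It had 14 of 20 genes tested, 0 past the threshold and a median log2 difference of -0.08, beside -0.08 over all genes tested. Tuba1b, an alpha-tubulin, differed by 0.21 and Tubb4b, a beta-tubulin, by 0.28 (limma adjusted p = 0.329 and 0.248). Of the severing enzymes, whose activity depends on the glutamate chains, 5 were tested and 0 passed. The katanin subunit Katna1 had a difference of -0.19 and its relative Katnal1 of 0.19 (adjusted p = 0.368 and 0.392).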

How the data were processed

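The authors' image analysis used Feature Extraction from Agilent (10.7 in the submitters' processing notes). The deposited processed signal is, per the file headers, an intensity after background subtraction that was not scaled from array to array, and the flags (other values of 0 or 1) mark spots well above background, saturated or outlying. The authors' own table of the series holds log2 values quantile-normalized by the authors, with a median of 2.63 in each column. Each column was matched to its own array's processed signal (Spearman correlation at least 0.9946, at most 0.941 with any other array), and its values are levels that were not centred.

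Processed signals were converted to log2, and each array's 75th percentile over all spots that were not controls was subtracted. Replicate spots were then averaged without outlier spots (323 to 711 per array). Outlier spots were kept where every spot of a probe was marked on that array, as for a marked probe with a single spot. No spot was saturated. Probes well above background on at least 6 of 12 arrays were kept (16314), and the brightest probe stood for a gene, giving 13562 genes and transcripts. Names came from the RefSeq annotation of GRCr8 (accession 21109 probes, symbol 6684, synonym 424), and 17381 probes kept the files' name. Fipronil and control were compared with limma 3.58.1 (lmFit, eBayes, two-sided) in R 4.3.3 with the package data.table (1.17.8), with Benjamini-Hochberg adjustment over all genes and a threshold of 0.05. The fit was tested on simulated data with independent normal spread and neither slide differences nor a background floor. That test therefore does not cover slide or background. The number of arrays limits the precision.

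The members and the lists were chosen with earlier results of these data known. Genes named from a list were those past the threshold or, where none passed, the 2 with the highest signal, and the 5 genes most like Ttll7. Nicn1, Tpgs2 and Vash2 were named after their values were seen. Replicate numbers 2, 3, 7 and 8 occur in both groups, but arrays of one number lay on different slides and their deviations had correlations of 0.43, 0.08, -0.11 and -0.31, so they were not used as pairs.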

Additional observations from a re-analysis of the deposited data

How the results depend on the processing

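Each value, apart from those of Rsph1 and Vash2, was recomputed under 13 other settings and without each array in turn. The Ttll7 difference stayed above 0 in all of those that kept its probe, but they reuse the arrays from which the gene was chosen. It was 0.36 with a normexp background and quantile normalization, 1.0 with normexp and the 75th percentile, 0.76 with slide as a fixed block or on slide 1 alone, and 1.33 to 1.62 with 1 array left out. The number of members past the threshold was 8 of 9 with normexp and the 75th percentile, where 50.1% of all genes passed, 3 between slides 3 and 2 (22.5% of all genes), 0 of 5 with detection required on all 12 arrays (9.09% of 10621 genes), and 0 with slide as a fixed or random block or on slide 1 alone. It was 1 to 2 with 1 array left out, beside 1.68% to 14.9% of all genes. The counts with 1 array left out include Ttll7, chosen from the same arrays, so nothing is read from them. With the replicate number as a block the number was also 0, as it was for all genes. Under that block 2167 genes had an unadjusted p under 0.05, and no member did, with the chosen Ttll7 left aside. Differences there turned sign for Ttll4 (-0.47), Agbl5 (-0.037) and Svbp (0.018). With the random block 1995 of 13562 genes stood at an unadjusted p under 0.05, and no member did, Ttll7 again left aside. With detection on all arrays 2903 of 10621 genes did, and 1 of 5 members, Tpgs1.

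Other differences changed sign. With slide as a fixed block or on slide 1 alone they became 0.22 for Ttll1, -0.50 for Ttll4, -0.10 for Ttll12, 0.28 for Tpgs1, -1.15 for Agbl4, 0.26 for Atat1, 0.18 for Cstpp1, 0.11 for Svbp, 0.10 for Th and -0.049 for Tubb4b. With normexp and the 75th percentile, where the median over all genes was 0.18, they became 0.46 for Ttll1, 0.19 for Foxj1, 0.13 for Katna1, 0.020 for Cstpp1, 0.011 for Th, -0.034 for Tuba1b and -0.13 for Sirt2. Median scaling gave -0.040 for Ttll5, -0.085 for Agbl5 and -0.040 for Sirt2, and slides 3 and 2 gave -0.032, -0.24 and -0.29 for the same genes. Agbl5 was -0.020 with quantile normalization, -0.021 with the deposited table and -0.010 with normexp and quantile normalization. Ttll4 was -0.34 without the filter, through another probe, and Tuba1b -0.024 as a mean over its probes. Leaving out 1 array gave -0.035 to 0.21 for Ttll5, -0.15 to 0.21 for Agbl5 and -0.050 to 0.16 for Sirt2, and brought Th past the threshold without fipronil replicate 8 (adjusted p = 0.020). The causes were not tested. Genes past the threshold were 303 higher and 377 lower, against 150 and 439 with median scaling, 5136 and 1661 with normexp and the 75th percentile, and 15088 and 1225 of 36181 without the filter. They were 8 and 4 with the fixed block, 9 and 12 with the random block, 1304 and 1747 between slides 3 and 2, and 228 to 2025 in all with 1 array left out, highest without fipronil replicate 8. Signal over background limits Ttll7, Ttll1, Ttll4, Ttl and Agbl5.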
